A study of Mus musculus with 12 samples.

Results

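Genes of hepatic glucose and glycogen metabolism, 8 in number (G6pc, Pck1, Fbp1, Pklr, Slc2a2, Ppargc1a, Gys2 and Pygl), were followed across 12 RNA-seq libraries of primary mouse hepatocytes. They were picked by name from a table of 54532 genes, and all 8 are in it. The donors were 6-week-old mice of 2 genotypes, G3bp1-Flox as controls (Flox) and a G3bp1 knockout restricted to hepatocytes (HKO). Cells of both genotypes received BSA or PA, which gives 4 groups of 3 libraries, named here by genotype and addition. The labels spell out neither BSA nor PA, and no source used here gives the dose, the duration, the Cre driver or whether a group's libraries came from different mice. The p-values below therefore measure only the spread between these samples, which may be technical. G3BP1 is an RNA-binding protein of stress granules, and the series was set up around its part in fatty liver disease.

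The liver takes up glucose after a meal and releases it in fasting. Pyruvate kinase, made in liver from Pklr, runs the last step of glycolysis, while the enzymes made from Pck1, Fbp1 and G6pc carry the opposite flow toward free glucose, and the carrier GLUT2 (Slc2a2) moves glucose across the hepatocyte membrane in both directions. Gys2 and Pygl encode the liver forms of glycogen synthase and glycogen phosphorylase, which build and break down the glycogen store. In fasted liver, glucagon acting through cAMP and the coactivator made from Ppargc1a raises Pck1 and G6pc transcription, whereas insulin lowers both by keeping FOXO1 out of the nucleus, and glucose itself raises Pklr through the factor ChREBP.

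Promoter windows show where such signals are known to meet some of these genes, and 4 are printed for the genes whose levels differ most below or that are textbook examples of the control. They are RefSeq sequences on GRCm38.p6, from 250 bases before to 50 bases after a start site, written 5′ to 3′ on the gene's own strand. Capitals mark matches, on either strand, to 10 motifs: the cAMP response core TGACGTCA and its short form TGACG, the FOXO site TGTTTNC and the insulin response form TGTTTTN, the E box CACGTG and the carbohydrate response form CACGNG (which includes it), the HNF4 form AAAGTCCA, the HNF1 site, the CCAAT box and the TATA form TATAAA. The windows lie at chr11:101367466-101367765 (G6pc), chr2:173152823-173153122 (Pck1), chr3:28697653-28697952 (Slc2a2) and chr3:89136373-89136672 (Pklr, the later of its 2 annotated starts), all on the plus strand.
G6pc: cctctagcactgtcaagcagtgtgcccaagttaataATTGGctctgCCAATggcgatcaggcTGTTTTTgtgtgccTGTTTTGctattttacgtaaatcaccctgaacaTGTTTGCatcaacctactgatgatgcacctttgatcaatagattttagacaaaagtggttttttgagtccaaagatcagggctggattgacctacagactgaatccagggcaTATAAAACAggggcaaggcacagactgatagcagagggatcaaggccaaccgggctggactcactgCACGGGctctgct
Pck1: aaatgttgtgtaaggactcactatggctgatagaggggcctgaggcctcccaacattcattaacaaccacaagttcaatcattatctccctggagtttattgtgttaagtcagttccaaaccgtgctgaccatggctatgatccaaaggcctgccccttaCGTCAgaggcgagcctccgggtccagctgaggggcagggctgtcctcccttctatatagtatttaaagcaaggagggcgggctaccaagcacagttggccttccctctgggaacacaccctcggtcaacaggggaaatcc
Slc2a2: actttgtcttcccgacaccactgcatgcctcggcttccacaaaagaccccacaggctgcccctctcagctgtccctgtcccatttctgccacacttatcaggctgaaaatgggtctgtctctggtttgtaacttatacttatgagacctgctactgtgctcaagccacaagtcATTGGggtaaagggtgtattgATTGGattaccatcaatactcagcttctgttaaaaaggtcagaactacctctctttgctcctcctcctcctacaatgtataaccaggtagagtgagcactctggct
Pklr: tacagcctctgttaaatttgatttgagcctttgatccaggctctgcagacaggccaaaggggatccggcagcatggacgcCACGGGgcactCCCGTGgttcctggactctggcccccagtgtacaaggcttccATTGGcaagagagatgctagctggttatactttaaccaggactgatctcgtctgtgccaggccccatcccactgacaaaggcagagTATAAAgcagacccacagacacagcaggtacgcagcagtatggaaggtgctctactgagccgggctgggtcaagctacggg

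Positions below count the first base of a match from the start site. The G6pc window held the FOXO form TGTTTNC at -141, the insulin response form TGTTTTN at -188 and -174 and, on the opposite strand, at -27, where it overlaps the TATAAA match at -29. That window also held the carbohydrate response form CACGNG at 38, past the start site, and CCAAT at -204 and, on the opposite strand, at -214. The Pck1 window held the short cAMP response form TGACG at -90 on the opposite strand, and not the longer TGACGTCA, which contains it. The Pklr window held 2 copies of the carbohydrate response form CACGNG, at -170 and, on the opposite strand, at -159, while the window at its other start held no match. The printed Pklr window also held CCAAT on the opposite strand at -117 and TATAAA at -31. The Slc2a2 window held 2 copies of CCAAT on the opposite strand, at -77 and -56. Among 32851 windows of the same length, TGTTTNC was found in 20.5%, TGTTTTN in 22.0%, TGACG in 20.8%, TGACGTCA in 1.79%, CACGNG in 27.5%, CACGTG in 7.15%, AAAGTCCA in 1.25%, the HNF1 site in 0.009%, CCAAT in 37.4% and TATAAA in 13.6%. A match describes letters in the window and is not a measured binding site. Sequences were matched for 7 of the 8 genes, Gys2 being the exception.

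Reads in genes came to 15.02 to 18.42 M (M, 10 to the power of 6) per library. G3bp1 itself was at 37.7 to 45.7 FPKM (fragments per kilobase and M fragments, a level corrected for gene length) in Flox and 7.03 to 8.50 FPKM in HKO. Hepatocyte identity genes were abundant in all libraries, but their summed level was 12074 to 13055 FPKM in Flox and 19155 to 33143 FPKM in HKO (11 of 12 listed genes found). Of these 11, 4 rose in BSA and 5 in PA with the knockout, and 0 fell. With BSA, mean Cps1 was at 10.65 FPKM in both genotypes, and mean Apob at 14.4 FPKM in Flox and 7.88 FPKM in HKO. All 16 listed Kupffer cell and macrophage genes were in the table, and their sum was 2048 to 2478 FPKM in Flox against 90.7 to 167 FPKM in HKO. Neutrophil genes summed to 17.3 to 25.7 FPKM in Flox and 0.208 to 0.738 FPKM in HKO. In Flox most of that sum was S100a8 (9.57 to 15.9 FPKM) and Csf3r (4.61 to 8.50 FPKM). The other 5 neutrophil genes averaged below 1 FPKM over the 12 libraries. Among them, Ly6g averaged 0.11, Retnlg 0.0682 and Mmp8 0.032 FPKM, with Cxcr2 near 0. Liver endothelium genes summed to 21.5 to 26.8 FPKM in Flox and 16.8 to 21.1 FPKM in HKO, with 3 of 5 tested genes falling in BSA and 2 in PA. Periportal hepatocyte genes, of the zone where gluconeogenesis is known to be high, summed to 403 to 459 FPKM in Flox and 560 to 698 FPKM in HKO with BSA, and to 471 to 494 and 444 to 482 FPKM with PA, with 4 of 6 tested genes rising in BSA and 2 in PA. Pericentral hepatocyte genes summed to 369 to 426 FPKM in Flox and 597 to 658 FPKM in HKO with BSA. With PA they summed to 432 to 510 FPKM in Flox and 497 to 614 FPKM in HKO. Of 4 tested pericentral genes, 2 rose in BSA, and 1 rose and 1 fell in PA. Of all tested genes, 9.63% rose and 10.8% fell with the knockout in BSA, and 16.9% rose and 18.8% fell in PA. Mitochondrially encoded genes took 2.21 to 4.34% of reads in genes in Flox and 4.10 to 8.20% in HKO. Lymphocyte genes summed to 0.598 to 1.45 FPKM in Flox and 0 to 0.092 FPKM in HKO, with Cd3e, Cd3g, Cd8a, Ms4a1 and Klrb1c near 0. Cholangiocyte genes, 5 of the 7 averaging below 1 FPKM, summed to 9.67 to 13.7 FPKM in Flox and 14.7 to 28.8 FPKM in HKO. The HKO libraries numbered 1 stood apart from the other HKO libraries on the second principal component, in opposite directions. With BSA, library 1 was at 26.7 and the others at 9.91 and 2.84. With PA, library 1 was at -34.3 and the others at -4.54 and 10.3. In bulk RNA, fewer cells of a type and less RNA per cell cannot be told apart. The part of these differences in the genotype results was not tested, but each genotype result below was also computed after scaling to the hepatocyte identity genes, an alternative chosen after seeing the data, which lowers the median of all genes by 0.39 (log2) in BSA and by 0.45 in PA.

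The 8 genes spanned a wide range of levels, as the plot of FPKM by library shows. In Flox with BSA, Pklr was at 261 FPKM ± 11.3 (SD, n = 3), Fbp1 at 123 FPKM ± 11.9 and Pygl at 32.3 FPKM ± 2.73, and these 3 did not overlap each other. Slc2a2, G6pc and Gys2 followed at 1.71, 1.25 and 1.001 FPKM, and neighbours in that order overlapped. Pck1 was at 0.0366 FPKM and Ppargc1a at 0.00282 FPKM. Of the 8, 6 therefore reached the minimum mean of 1 FPKM over the 12 libraries that was set for testing, and Pck1 and Ppargc1a did not. In HKO with BSA the order of means was the same, with Slc2a2 and G6pc overlapping and Gys2 below both. In HKO with PA, Pklr and Fbp1 overlapped too, as did neighbours among Slc2a2, G6pc and Gys2.

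**Figure D1:**
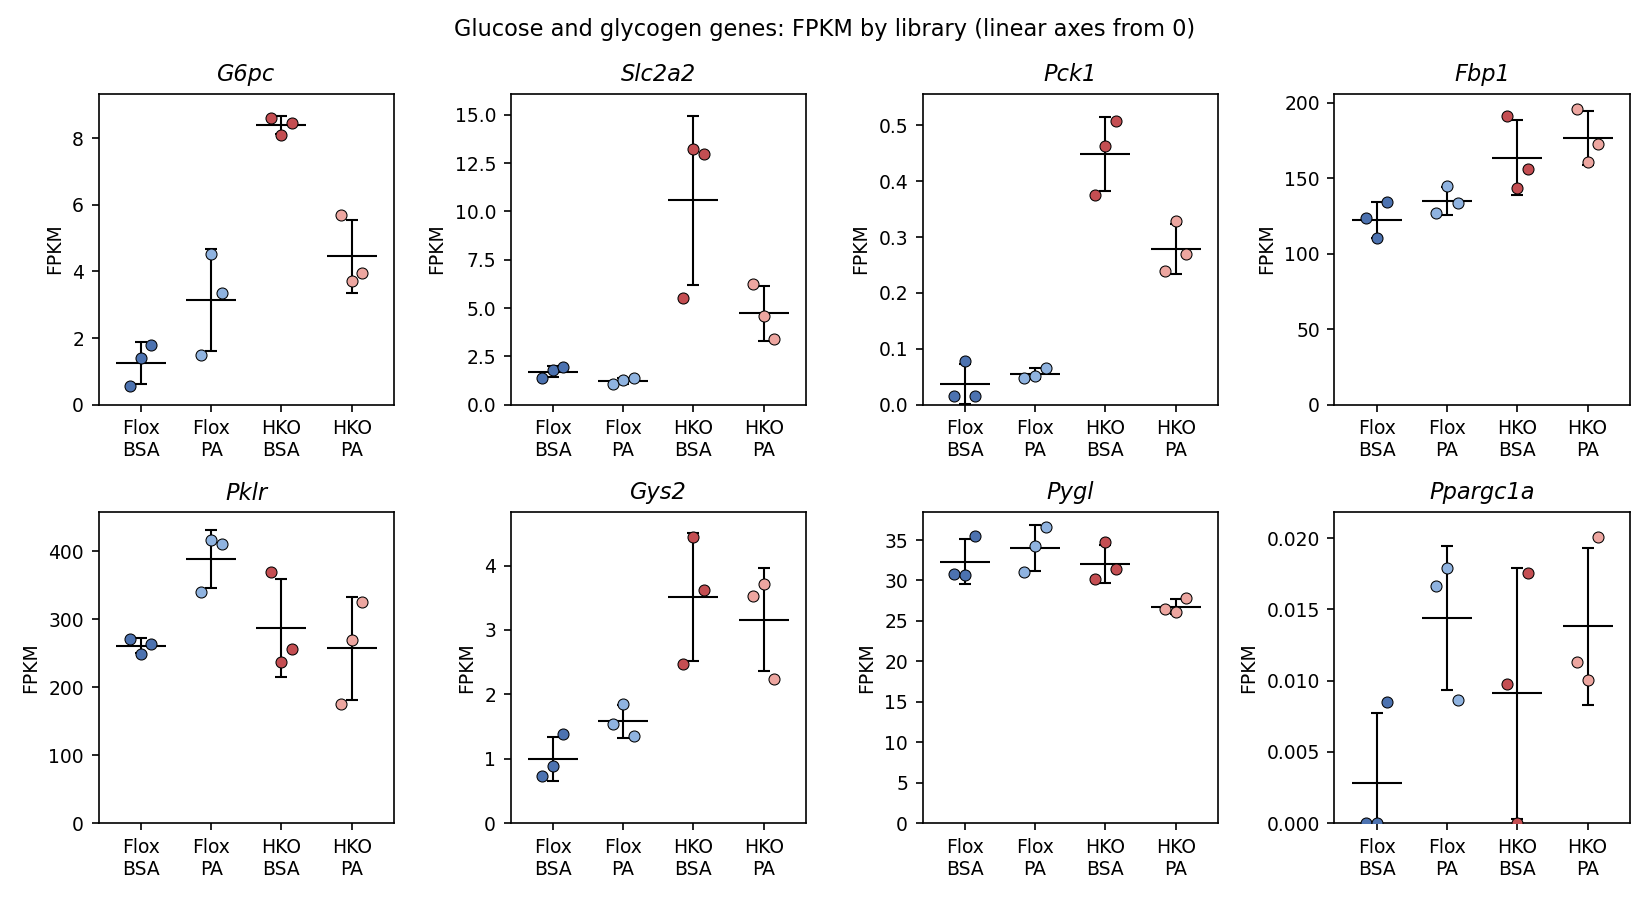
FPKM (vertical axes, linear from 0, scaled per gene) of the 8 genes in the 4 groups. Points are libraries, horizontal lines are means and bars are 1 SD (n = 3). G6pc, Slc2a2, Pck1 and Gys2 lie higher in all 3 HKO libraries with BSA than in all 3 Flox libraries with BSA, whereas Pklr and Pygl overlap there. In that comparison 37.7% of all tested genes had groups without overlap. Ppargc1a is at 0 to 2 reads per library.

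Among the 6 tested members, Slc2a2 and Gys2 rose in G3bp1 knockout cells in both media, G6pc rose in BSA only, and Pklr and Pygl fell in PA only. With BSA, G6pc was 6.73-fold, Slc2a2 6.17-fold and Gys2 3.51-fold higher in HKO than in Flox. With PA, Slc2a2 (3.81-fold) and Gys2 (2.0001-fold) were again higher, while Pklr and Pygl were lower at 66.0% and 78.8% of the Flox level. In the test over all 9743 genes that reached the minimum (limma on log2(FPKM + 1), Benjamini-Hochberg adjusted p under 0.05), 3 of 6 tested members rose and 0 fell with the knockout in BSA, where 9.63% of all tested genes rose and 10.8% fell. In PA, 2 of 6 rose and 2 fell, where 16.9% of all tested genes rose and 18.8% fell. The median log2 difference of the 6 was 0.78 in BSA and 0.42 in PA, against 0.04 and 0.00 over all tested genes. limma-voom on reads recovered from the FPKM values called 4 rises in BSA, and 3 rises and 2 falls in PA.

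PA moved none of the 6 past the test. In Flox, 0 of 6 passed and 2 were higher at an unadjusted p under 0.05, where 1.29% of all tested genes rose and 0.913% fell. In HKO, 0 of 6 passed and 2 were lower at an unadjusted p under 0.05, where 1.68% of all tested genes rose and 1.25% fell. For the interaction, the PA difference in HKO minus that in Flox, 0 of 6 passed and 2 were negative at an unadjusted p under 0.05, with 0.164% of all tested genes called positive and 0.103% negative. limma-voom also called 0 in these 3 comparisons. The comparisons share groups, Flox with BSA entering both a PA and a genotype comparison, so their values are not independent of each other.

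**Figure D2:**
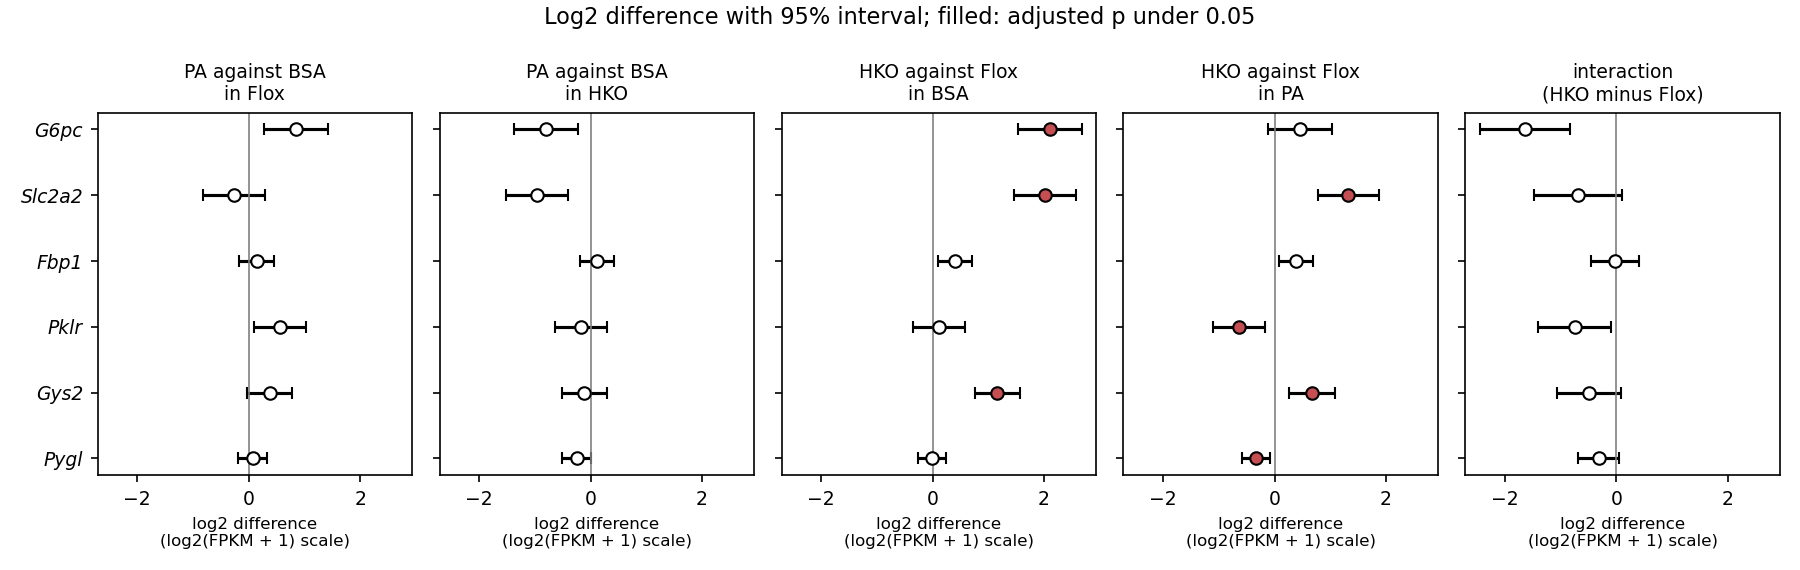
Log2 differences on the log2(FPKM + 1) scale (horizontal axes) for the 6 tested genes (rows) in 5 comparisons (panels), with 95% intervals. Filled points passed the test. G6pc and Slc2a2 stand near a difference of 2 for HKO against Flox in BSA, and the G6pc interaction lies below 0.

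G6pc encodes the catalytic subunit of glucose-6-phosphatase, the last enzyme before free glucose (ENSMUSG00000078650, chr11:101367561-101377903, plus strand, 5 exons). In Flox with BSA it was at 0.563, 1.40 and 1.78 FPKM, and in HKO with BSA at 8.62, 8.09 and 8.47 FPKM. The 2 groups were far apart, and the HKO libraries differed little among themselves. The log2 difference was 2.10 with a standard error (SE) of 0.27 (adjusted p = 3.87e-05), and 1.78 after scaling to hepatocyte genes (adjusted p = 9.86e-05). With PA, Flox libraries were at 1.497, 4.53 and 3.37 FPKM and HKO libraries at 5.70, 3.70 and 3.95 FPKM. These overlapped, and the log2 difference of 0.46 did not pass (adjusted p = 0.193, and 0.01 after scaling to hepatocyte genes).

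G6pc thus had opposite signs under PA in the 2 genotypes. In Flox the log2 difference of PA from BSA was 0.84 (adjusted p = 0.143), and library 1 with PA lay among the BSA libraries. In HKO it was -0.80 (adjusted p = 0.117), with all 3 PA libraries below all 3 BSA libraries, where 18.2% of all tested genes had groups that did not overlap. The interaction was -1.65 with an SE of 0.38 (95% interval -2.46 to -0.84) and an adjusted p of 0.0725, so it did not pass. Of 23 alternatives, 21 also left it uncalled, with adjusted p up to 0.201. The interaction passed with gene-by-gene array weights, a setting that called 1668 genes in all against 26 as reported. It also passed without the first Flox library with PA (-1.97, adjusted p = 0.029), the library that lay among the BSA libraries. G6pc rests on 26 to 353 reads per library, the lowest of them in Flox with BSA.

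Slc2a2 encodes GLUT2, the low-affinity glucose carrier of hepatocytes (ENSMUSG00000027690, chr3:28697903-28731359, plus strand, 11 exons). Flox libraries with BSA were at 1.38, 1.80 and 1.96 FPKM, and HKO libraries with BSA at 5.53, 13.2 and 13.0 FPKM. All HKO libraries were higher, library 1 by the least. The log2 difference was 2.01 (SE 0.26, adjusted p = 4.56e-05), and 1.66 after scaling to hepatocyte genes. With PA, Flox libraries were at 1.08, 1.28 and 1.36 FPKM and HKO libraries at 6.22, 4.57 and 3.41 FPKM, again without overlap, with a log2 difference of 1.33 (SE 0.26, adjusted p = 0.00164), and 0.93 after that scaling. Groups did not overlap for 37.7% of all tested genes in BSA and 52% in PA.

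Within HKO, Slc2a2 averaged 10.6 FPKM ± 4.37 with BSA and 4.73 FPKM ± 1.41 with PA. The log2 difference of -0.96 missed the threshold (adjusted p = 0.0648), and library 1 with BSA lay within the PA range. Without both HKO libraries numbered 1 the difference was -1.51 (adjusted p = 0.000153). Of 18 alternatives, 14 left this difference uncalled. In Flox the log2 difference under PA was -0.27 (adjusted p = 0.615), and the interaction of -0.69 did not pass (adjusted p = 0.333, and -1.24 with adjusted p = 0.0126 without both HKO libraries numbered 1). The interaction stayed uncalled in 21 of 23 alternatives.

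Pck1 encodes the cytosolic phosphoenolpyruvate carboxykinase, the classic controlled step of gluconeogenesis (ENSMUSG00000027513, chr2:173153048-173159273, plus strand, 8 exons). It was near the limit of 3 reads in Flox and low in HKO. Flox libraries with BSA held 1, 5 and 1 reads and those with PA 3, 3 and 4 reads, whereas HKO libraries held 20, 25 and 30 reads with BSA and 11, 17 and 14 reads with PA. Both HKO groups lay above both Flox groups. With each library scaled as the deposited FPKM values are, the pooled ratio of HKO to Flox was 12.3 in BSA (95% interval 5.68 to 31.6) and 5.08 in PA (2.51 to 11.3), intervals that cover counting error only.

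Pck1 was below the minimum for the main test, so it was fitted without a filter, an alternative added after seeing the data. On the log2(FPKM + 1) scale, which strongly understates a gene this low, HKO exceeded Flox by 0.48 in BSA (adjusted p = 2.4e-05) and by 0.28 in PA (adjusted p = 0.00158). limma-voom gave 3.65 (SE 0.53, adjusted p = 6e-05) and 2.17 (SE 0.50, adjusted p = 0.00415). Within HKO the pooled ratio of PA to BSA was 0.623 (0.416 to 0.92) and the fit did not pass (adjusted p = 0.1). Within Flox it was 1.51 (0.518 to 4.67).

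Fbp1 encodes fructose-1,6-bisphosphatase, which opposes phosphofructokinase (ENSMUSG00000069805, chr13:62864753-62888282, minus strand, 7 exons). Flox libraries with BSA were at 123, 110 and 134 FPKM and HKO libraries with BSA at 191, 143 and 156 FPKM. With PA, Flox libraries were at 127, 145 and 133 FPKM and HKO libraries at 196, 161 and 173 FPKM. HKO lay above Flox without overlap in both media. Of all tested genes, 37.7% in BSA and 52% in PA had groups that did not overlap, in either direction. The log2 differences of 0.41 (SE 0.14, adjusted p = 0.0604) and 0.38 (SE 0.14, adjusted p = 0.0519) missed the threshold, while limma-voom gave adjusted p of 0.0361 and 0.0392, and scaling to hepatocyte genes turned the differences to -0.05 and -0.18. PA differences were small, 0.14 in Flox (95% interval -0.17 to 0.45) and 0.11 in HKO (-0.19 to 0.42).

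Pklr, the liver and red cell pyruvate kinase gene (ENSMUSG00000041237, chr3:89136142-89146784, plus strand, 14 exons), was the most abundant of the 8. With BSA, Flox libraries were at 270, 248 and 264 FPKM and HKO libraries at 370, 237 and 256 FPKM. These groups overlapped, and the log2 difference of 0.11 did not pass (adjusted p = 0.765), turning to -0.35 after scaling to hepatocyte genes. With PA, Flox libraries were at 340, 417 and 410 FPKM and HKO libraries at 175, 270 and 325 FPKM. HKO was lower without overlap, library 1 by the most, where 52% of all tested genes had groups without overlap. The fall of the log2 level was -0.64 (SE 0.22, adjusted p = 0.0352), and -1.20 after that scaling (adjusted p = 0.0029). That call was lost without Flox library 2 or 3, without HKO library 1 or 2, without a filter (adjusted p = 0.0948) and with only the groups compared (adjusted p = 0.0596). Without HKO library 1 with PA the log2 difference was -0.38 (adjusted p = 0.147).

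Within Flox, all 3 Pklr values with PA lay above all 3 with BSA, a log2 difference of 0.57 that did not pass (SE 0.22, adjusted p = 0.23), and 39% of all tested genes had groups without overlap in that comparison. In a fit of the 2 Flox groups alone the same difference had an adjusted p of 0.00642, while 16 of 19 alternatives left it uncalled. Within HKO the log2 difference was -0.18 (adjusted p = 0.66) and the interaction -0.75 (SE 0.31, adjusted p = 0.245). Pklr shares 711 exonic bases with Hcn3 on the opposite strand, and the kit named in the labels does not mark strand, so reads there cannot be assigned to one gene. Hcn3 was listed at 6.31 to 13.1 FPKM, far below Pklr.

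Gys2 encodes liver glycogen synthase (ENSMUSG00000030244, chr6:142422613-142473109, minus strand, 17 exons). Flox libraries with BSA were at 0.727, 0.888 and 1.39 FPKM and HKO libraries with BSA at 2.47, 4.44 and 3.62 FPKM. All HKO libraries were higher, where 37.7% of all tested genes had groups without overlap. The log2 difference was 1.16 (SE 0.19, adjusted p = 0.000466), and 0.87 after scaling to hepatocyte genes. With PA, Flox libraries were at 1.55, 1.85 and 1.35 FPKM and HKO libraries at 3.53, 3.71 and 2.24 FPKM. The rise with PA was 0.67 (SE 0.19, adjusted p = 0.0148), but 0.28 after that scaling (adjusted p = 0.186). That rise was also lost without Flox library 3, HKO library 1 or HKO library 2 with PA (adjusted p from 0.0542 to 0.0613) and without a filter (adjusted p = 0.0508). Gys2 rests on 37 to 186 reads per library.

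Pygl encodes liver glycogen phosphorylase (ENSMUSG00000021069, chr12:70190811-70231488, minus strand, 22 exons). Flox libraries with BSA were at 30.8, 30.7 and 35.5 FPKM and HKO libraries with BSA at 30.1, 34.7 and 31.4 FPKM. They overlapped, with a log2 difference of -0.01 (95% interval -0.27 to 0.25), and -0.46 after scaling to hepatocyte genes (adjusted p = 0.0498). With PA, Flox libraries were at 31.0, 34.3 and 36.6 FPKM and HKO libraries at 26.5, 26.1 and 27.8 FPKM. HKO was lower in all, where 52% of all tested genes had groups without overlap. The log2 difference was -0.33 (SE 0.12, adjusted p = 0.0447), and -0.88 after scaling to hepatocyte genes. That fall did not pass without Flox library 2 or 3 or HKO library 1 or 2 (adjusted p from 0.0784 to 0.17), or with only the groups compared (adjusted p = 0.0681).

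Ppargc1a encodes PGC-1alpha, the fasting coactivator (ENSMUSG00000029167, chr5:51454250-51567726, minus strand, 14 exons). No library held more than 2 reads. All values, at most 0.0201 FPKM, were under the level of 3 reads, 0.0238 to 0.0339 FPKM depending on the library, so a difference was not detectable at this depth and no fold is given.

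Several of the 8 genes have a relative that encodes the form used outside the hepatocyte, and the share of the liver form is shown in the plot of shares by library. Pklr made up 71.7% ± 1.66 (SD, n = 3) of the summed FPKM of Pklr and Pkm in Flox with BSA and 91.7% ± 0.407 in HKO with BSA, and with PA 73.5% ± 1.60 and 90.2% ± 2.82. Pkm, the form of most other cells including macrophages, fell from 103 to 26.2 FPKM in BSA (log2 difference -1.97, adjusted p = 1.1e-06). Gys2 made up 38.2% ± 5.57 of Gys1 and Gys2 in Flox with BSA and 78.4% ± 5.10 in HKO with BSA, and with PA 49.3% ± 6.49 and 78.7% ± 7.64.

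Slc2a2 was 9.26% ± 1.70 of Slc2a1, Slc2a2 and Slc2a3 in Flox with BSA and 35.9% ± 15.03 in HKO with BSA, and with PA 5.76% ± 0.478 and 22.9% ± 9.30. In every group the mean of Slc2a1, the widespread GLUT1, was above that of Slc2a2, at 18.9 FPKM in HKO with BSA. G6pc made up 17.6% ± 7.45 of G6pc and G6pc3, its ubiquitous relative, in Flox with BSA and 55.0% ± 5.24 in HKO with BSA, whereas with PA the shares were closer, at 32.4% ± 8.64 and 40.7% ± 2.16. The share of Pygl was 86.0% ± 1.29 and 86.1% ± 1.23 with BSA, and 83.3% ± 0.846 and 83.3% ± 4.68 with PA, in Flox and HKO. Pck1 was at most 1.84% of Pck1 and Pck2 in any library, so nearly all phosphoenolpyruvate carboxykinase transcript was of the mitochondrial form Pck2. These shares are descriptions without a test. The macrophage gene sums given above moved with genotype in the same libraries, and their part in the shares was not tested.

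**Figure D3:**
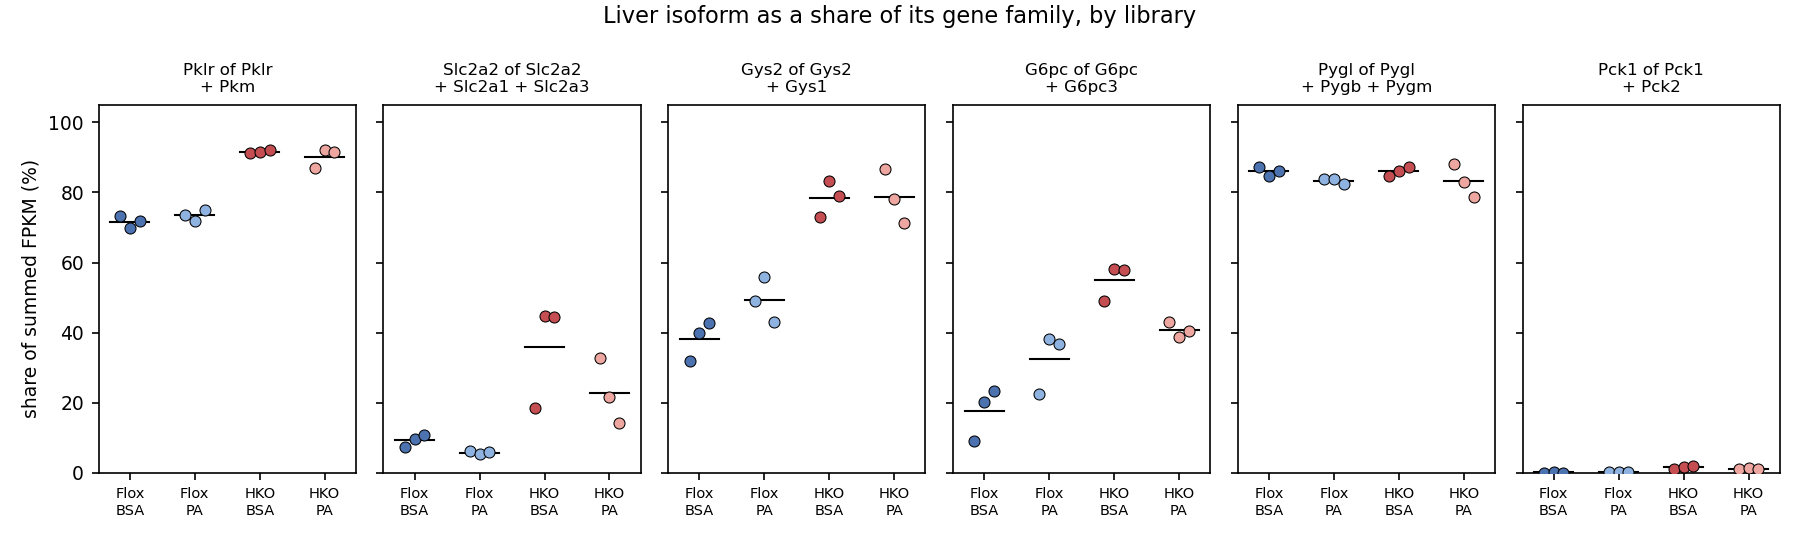
Share (%, linear axis from 0) of the liver gene in the summed FPKM of its family, per library (points) with group means (lines, n = 3), for 6 families. The shares of Pklr, Gys2, G6pc and Slc2a2 are higher in HKO than in Flox with BSA, and the share of Pygl is about 86% in both.

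The other genes of the pathway were taken from 9 lists, whose members are plotted as log2 differences. For comparison with the counts below, 9.63% of all tested genes rose and 10.8% fell with the knockout in BSA, and 16.9% rose and 18.8% fell in PA. Under PA, 1.29% of all tested genes rose and 0.913% fell in Flox, and 1.68% rose and 1.25% fell in HKO. Of 22 glycolysis genes 18 were tested, and with the knockout 1 rose and 3 fell in BSA, and 1 rose and 8 fell in PA, Pklr among them (median 0.09 and -0.38). The 3 that fell in BSA were Hk3 (log2 difference -3.28), Pkm (-1.97) and Hk2 (-1.13), hexokinases and a pyruvate kinase of cells other than the hepatocyte, and the same 3 fell in PA. Hk3 was at 10.2 to 13.6 FPKM in Flox and 0.103 to 0.56 FPKM in HKO, so it reached the minimum for testing through Flox alone. Under PA, 0 of 18 passed in either genotype, with 8 higher in Flox and 2 lower in HKO at an unadjusted p under 0.05 and 0 by limma-voom.

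Of 13 genes of gluconeogenesis and glucose release 11 were tested, and with the knockout 5 rose and 1 fell in BSA, and 3 rose and 2 fell in PA (median 0.41 and 0.27). Beside G6pc and Slc2a2, Slc37a4, the carrier that brings glucose 6-phosphate to glucose-6-phosphatase, rose from 16.1 to 39.2 FPKM in BSA (log2 difference 1.21, adjusted p = 0.000251). Got1, the cytosolic aspartate aminotransferase, rose by 0.55 (log2), and by 0.09 without passing after scaling to hepatocyte genes. In PA, Mdh1, the cytosolic malate dehydrogenase, rose by 1.02 (log2), while Pcx, the pyruvate carboxylase that starts gluconeogenesis, fell by 1.05 and Pck2 fell by 0.54. PA lowered 2 of the 11 in HKO, Pcx from 55.6 to 30.9 FPKM (adjusted p = 0.0464) and Slc37a4 from 39.2 to 22.8 FPKM (adjusted p = 0.048), neither of which passed after scaling to hepatocyte genes. In Flox 0 of 11 passed under PA, with 2 higher at an unadjusted p under 0.05 and 0 by limma-voom.

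**Figure D4:**
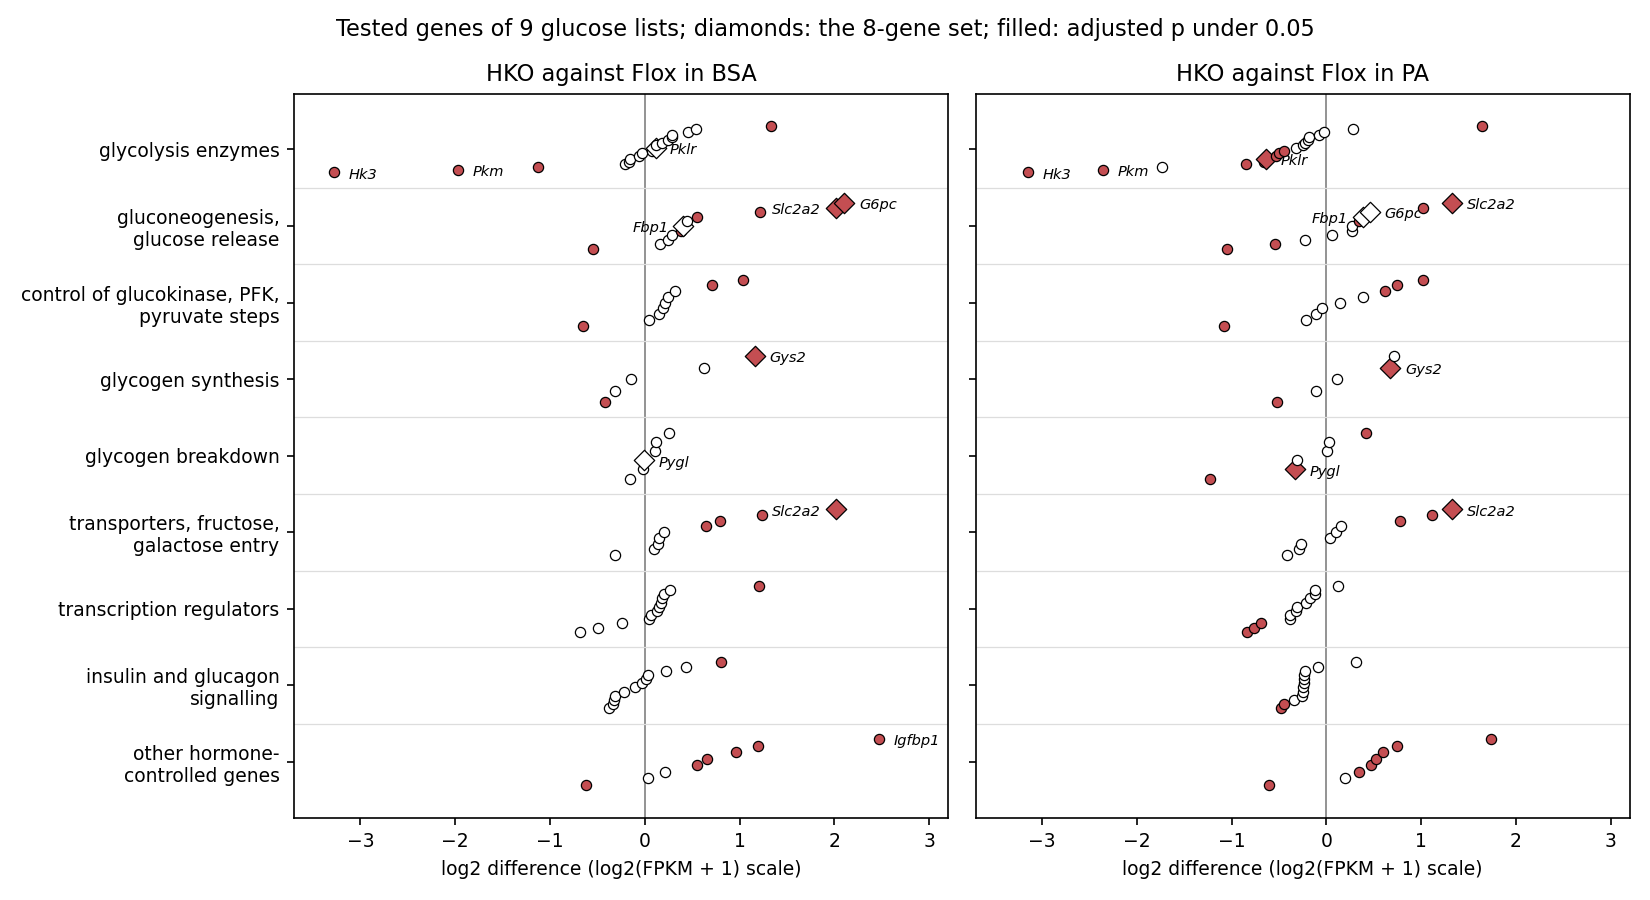
Log2 differences (horizontal axes, log2(FPKM + 1) scale) of the tested genes of 9 lists (rows) for HKO against Flox in BSA (left) and PA (right). Diamonds are the 8-gene set, circles other list genes, and filled symbols passed the test. Hk3 and Pkm lie farthest to the left in both panels, and Igfbp1, G6pc and Slc2a2 farthest to the right in BSA.

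Enzymes that set the balance between glycolysis and oxidation differed gene by gene. Of 13 control genes 9 were tested, and with the knockout 2 rose and 1 fell in BSA, and 3 rose and 1 fell in PA (median 0.21 and 0.14). The 3 that rose in PA include Pdk4 and Pfkfb1. Both reached the minimum for testing through HKO alone, so their calls are no support for a rise. Pfkfb1 was at 0.572 to 0.904 FPKM in Flox and 1.01 to 1.83 FPKM in HKO. Pdk2, a kinase that shuts pyruvate dehydrogenase, rose by 1.04 in BSA (log2, adjusted p = 0.00117). Mpc2, a subunit of the mitochondrial pyruvate carrier, rose by 0.71 in BSA and 1.01 in PA, although the first did not pass after scaling to hepatocyte genes. Pfkfb3, which makes the activator of phosphofructokinase, fell by 0.65 and 1.08. Pdk4, a fasting-induced kinase of the same complex as Pdk2, was the 1 gene of the 9 that passed under PA in HKO, from 0.708 to 2.36 FPKM (log2 difference 0.97, adjusted p = 0.000245). It reached the minimum for testing only through HKO with PA, its means in Flox being 0.482 and 0.994 FPKM, so this call is no support for a rise. In Flox its log2 difference of 0.43 did not pass (adjusted p = 0.0624), nor did the interaction (0.54, adjusted p = 0.129).

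Of 9 synthesis genes 5 were tested, and 1 rose (Gys2) and 1 fell in each medium with the knockout (median -0.14 and 0.11). The faller was Gys1, the muscle and general glycogen synthase, with log2 differences of -0.42 and -0.53, at 1.58 and 1.62 FPKM in Flox and 0.924 and 0.826 FPKM in HKO, so it reached the minimum for testing through Flox alone. Of 10 breakdown genes 6 were tested: in BSA 0 passed, with 0 at an unadjusted p under 0.05 and 0 by limma-voom, and in PA 1 rose and 2 fell (median 0.05 and -0.15). In PA, Gaa, the lysosomal acid glucosidase, fell by 1.23 (log2, adjusted p = 0.00033) and Stbd1, a glycogen-binding protein, rose by 0.41, a sign that turned after scaling to hepatocyte genes (-0.14).

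Of 13 transporter and sugar entry genes 9 were tested, and 4 rose in BSA and 3 in PA with the knockout, none falling (median 0.20 and 0.10), whereas after scaling to hepatocyte genes 2 rose and 1 fell in BSA, and 2 rose and 3 fell in PA. Beside Slc2a2 they included Khk, the ketohexokinase of fructose entry (log2 difference 0.80 in BSA and 0.77 in PA), and, in BSA, Slc2a8 (0.64). Khk did not pass in either medium after that scaling, nor did Slc2a8. Over all genes that scaling gave 240 rises and 3091 falls in BSA, and 378 and 4913 in PA.

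Of all tested genes, 9.63% rose with the knockout in BSA and 18.8% fell in PA. Among the regulators, 12 of 20 listed genes were tested, and with the knockout 1 rose in BSA and 3 fell in PA (median 0.14 and -0.31). The riser was Foxa2, a liver pioneer factor, at 3.81 FPKM ± 0.416 in Flox and 10.1 FPKM ± 1.38 in HKO (n = 3, log2 difference 1.20, adjusted p = 7.25e-05). Foxa2 also rose under PA in Flox, to 7.09 FPKM ± 0.95 (log2 difference 0.75, adjusted p = 0.0298, and 0.127 after scaling to hepatocyte genes). The fallers were Cebpb (-0.84), Mlxipl, which encodes ChREBP (-0.76), and Srebf1, a factor of insulin-driven lipid and glucokinase genes (-0.70). Mlxipl was the 1 regulator that fell under PA in HKO, from 27.3 to 16.6 FPKM (log2 difference -0.70, adjusted p = 0.0411), a call lost after scaling to hepatocyte genes. Of 15 insulin and glucagon signalling genes 12 were tested, and 1 rose in BSA and 2 fell in PA (median -0.07 and -0.24). These signalling counts lie close to the shares of all tested genes, 9.63% rising in BSA and 18.8% falling in PA. The glucagon receptor Gcgr rose in BSA (log2 difference 0.81, adjusted p = 0.00814, and 0.36 without passing after that scaling), and Akt1 (-0.45) and Akt2 (-0.48) fell in PA.

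The list of other genes known to follow the same hormones held 10 genes, 8 of them tested, of which 5 rose and 1 fell in BSA, and 6 rose and 1 fell in PA (median 0.60 and 0.50). The 6 include Pdk4, which reached the minimum for testing only through HKO with PA, so its call is no support for a rise. After scaling to hepatocyte genes 3 rose in BSA and 2 in PA, and 1 fell in each. Over all genes that scaling gave 240 rises and 3091 falls in BSA, and 378 and 4913 in PA. Igfbp1, an insulin-repressed and FOXO-driven gene, rose from 11.3 to 68.5 FPKM in BSA (log2 difference 2.47, adjusted p = 5.28e-07) and from 22.2 to 75.8 FPKM in PA (1.74, adjusted p = 2.53e-05). Tat, the tyrosine aminotransferase of fasting, rose by 0.96 in BSA. Txnip, a glucose-induced gene, fell by 0.60 in PA. Under PA in Flox, Angptl4 (log2 difference 0.86) and Igfbp1 (0.89, adjusted p = 0.0448, and 0.0717 after scaling to hepatocyte genes) rose and Fgf21 fell by 1.31, and in HKO Fgf21 fell by 0.82.

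Scaling to hepatocyte genes changed the split of rises and falls in most of these lists. For HKO against Flox in BSA and in PA it gave 1 rise with 6 falls and 1 with 14 for glycolysis, 3 with 1 and 2 with 3 for gluconeogenesis and glucose release, and 1 with 1 and 3 with 4 for the control genes. It gave 1 with 3 and 0 with 3 for glycogen synthesis and 0 with 1 and 0 with 3 for glycogen breakdown. For the regulators it gave 1 with 3 and 0 with 11, and for insulin and glucagon signalling 0 with 5 and 0 with 10. Over all genes the same scaling gave 240 rises with 3091 falls in BSA and 378 with 4913 in PA. Without it there were 938 with 1056 and 1644 with 1831, among 9743 tested genes. The larger number of falls is therefore not particular to these lists. Under PA, 0 genes of the glycogen synthesis, glycogen breakdown, transporter and signalling lists passed in either genotype, in limma or limma-voom. At an unadjusted p under 0.05 they held 0, 0, 1 and 2 genes in Flox and 1, 1, 1 and 3 in HKO.

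Genes whose levels ran most like each member over the 12 libraries are given as a description. For Slc2a2 they were Glud1 (Pearson r = 0.98), Rras2 (0.97) and Slc27a2 (0.96), and for G6pc Grb14 (0.93), Ahsg (0.92) and F10 (0.92). For Pklr they were Sema4a, Shc1 and Acsf2 (each 0.98), for Fbp1 Fuca1, Ppib and Marc2 (each 0.97), for Gys2 Ugdh, Stxbp6 and Cyp2c23 (each 0.95), and for Pygl Cybc1 (0.89), Ppp1r15b (0.89) and Cry1 (0.88). All 12 points share the split by genotype. Among the members, Slc2a2 and Gys2 correlated at 0.87 over the 12 libraries and at 0.79 after the group means were removed, and Slc2a2 and Pklr at -0.51 and -0.81. In the Flox libraries alone, with group means kept, Slc2a2 correlated at -0.35 with Gys2 and at -0.67 with Pklr. The 0.87 for Slc2a2 and Gys2 thus does not hold within Flox. The 0.79 has no like value here, since it was not computed for Flox alone with the group means removed.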

How the data were processed

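The deposited table gives FPKM per gene and library, with the gene length used, and the build is GRCm38 (mm10) per the submitters' processing notes. No source used here gives the aligner, the counter or the annotation. FPKM times length gave whole reads (100% of values up to 1000 reads within 0.01 of whole). The 9743 of 54532 genes whose mean reached 1 FPKM were tested on log2(FPKM + 1), which understates the change of low genes, with limma 3.58.1 in R 4.3.3: 4 group means, a variance trend, two-sided p-values and Benjamini-Hochberg over all tested genes, called under 0.05. Simulated data with known changes were used to check the fit. Fold values are ratios of mean FPKM. No column was left unmapped. The members and lists were chosen with earlier results of these data known. Named list genes are the up to 4 of each list and comparison with the highest absolute log2 difference among those that passed without overlap of the groups, or the 2 with the smallest p, of which some are given; a few listed genes are not reported here. The symbol Marc2 came from a names table because the deposited symbol had turned into a date. Alternatives were pseudocount, filters, scalings, array weights, prior, fitted groups, blocks, limma-voom and left-out libraries.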

Additional observations from a re-analysis of the deposited data

How the results depend on the processing

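Across 639 recomputed differences of single members, 592 kept their side of the threshold, 17 lost the call and 30 gained it. Of the 592, 567 kept their direction and 25 changed it, all 25 uncalled (Fbp1, Pklr, Pygl and Gys2), and 0 of the called ones changed sign. The rises of G6pc and Slc2a2 with the knockout in BSA, of Slc2a2 in PA and of Gys2 in BSA passed in every alternative that tested these genes. A filter at 5 FPKM leaves G6pc, Slc2a2 and Gys2 untested, and 0 members then passed for HKO against Flox in BSA, against 3. For HKO against Flox in PA, 4 members passed, but 2 without a filter, 2 with only the groups compared, and 1 to 4 with 1 library left out. For PA in Flox, 3 members passed with gene-by-gene array weights, 1 with only the groups compared, 2 without both HKO libraries numbered 1, and 0 to 1 with 1 library left out. For PA in HKO, 2 passed with gene-by-gene weights, 1 without both HKO libraries numbered 1, 1 after scaling to hepatocyte genes, and 0 to 1 with 1 library left out. For the interaction, 5 passed with gene-by-gene weights, 1 without both HKO libraries numbered 1, and 0 to 1 with 1 library left out. Apart from the filter at 5 FPKM, the cause was not tested. Gene-by-gene weights also raised the calls over all genes. These went from 215 to 3641 for PA in Flox, from 286 to 1532 for PA in HKO and from 26 to 1668 for the interaction.

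Over all genes, calls ranged over the alternatives from 64 to 3641 for PA in Flox (215 as reported), 42 to 1532 for PA in HKO (286), 1062 to 5764 for HKO against Flox in BSA (1994), 2280 to 5291 in PA (3475) and 0 to 1668 for the interaction (26). Scaling to hepatocyte genes gave 240 higher and 3091 lower in BSA (938 and 1056 as reported), 378 and 4913 in PA (1644 and 1831), and 4 and 4 for the interaction (16 and 10). Deviations of same-numbered libraries of 1 genotype correlated at 0.20, -0.015 and 0.32 in Flox and at -0.24, 0.35 and -0.48 in HKO. These values do not settle whether the numbers pair the samples, and the main fit used no pairing. With the number as a replicate block, 0, 0, 3, 3 and 0 members passed in the 5 comparisons, the Pklr fall being lost (adjusted p = 0.0505). Depth limits Pck1 and Ppargc1a most.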
